A study of Mus musculus with 4 samples.

Results

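The 29 genes described here encode the enzymes that build fatty acids (9 genes) and cholesterol (15 genes) and the proteins that control the sterol regulatory element-binding proteins, the SREBPs (5 genes). They were taken by symbol from a list and found through their Ensembl identifiers among 38293 genes in the count files. The rule uses no measured value, but the list was drawn up with earlier results of these data known. All 29 were found, and all 29 passed the filter on low counts. The libraries came from tumours of FVB mice carrying MMTV-Neu, a transgene in which the mammary tumour virus promoter drives the Neu (Erbb2) oncogene, chiefly in mammary epithelium. All 4 tumours carry that transgene. In the 2 AXL KO tumours both Axl alleles are knocked out (AXL-/-), and the 2 WT tumours are AXL+/+. The sources used here do not give the age of the mice, the cells in which Axl was deleted, or whether each library is a different animal. The p-values therefore speak only of the spread among these libraries, which may be technical.

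Fatty acid synthesis turns cytosolic acetyl-CoA into palmitate, which is then lengthened and desaturated, while the sterol branch carries acetyl-CoA through mevalonate and squalene to cholesterol. Both branches are switched on by SREBPs, membrane-bound transcription factors that are escorted by SCAP from the endoplasmic reticulum for cleavage and held back by the INSIG proteins when sterols are plentiful. SREBP-1, from Srebf1, acts mostly on fatty acid genes, SREBP-2, from Srebf2, mostly on sterol genes, and the lactating mammary gland uses the fatty acid branch heavily to make milk fat.

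SREBPs bind sterol regulatory elements next to sites for the cofactors NF-Y and Sp1, and these letters were looked for in RefSeq promoter windows (GRCm38.p6, 250 bases before to 50 after each start, both strands). Of the 29 members 24 matched by symbol, with 33 windows, and Scd1, Scd2, Fdps, Fdft1 and Sqle did not match. The NF-Y box CCAAT was in 66.7% of the member windows and in 37.4% of all 32851 windows, and the Sp1 box GGGCGG in 69.7% and 35.7%. An E-box, CACGTG, was in 18.2% and 7.15%. The element TCACNCCAC was in 1 member window, that of Hmgcs1, which is 3.03% of member windows against 1.24% of all. These shares describe letters only, and several members have more than 1 window. The bases from 250 to 51 before the start are shown for 3 members, Hmgcs1 as the holder of that element, Insig1 as the member with the largest group difference, and Fasn as the enzyme that varied most between the WT libraries among the fatty acid genes. Capitals mark CCAAT or its complement ATTGG and, in Hmgcs1, the element TCACCCCAC, which begins 137 bases before the start. They are read 5′ to 3′ on the gene's strand, at chr13:119690101-119690300 (plus), chr5:28071162-28071361 (plus) and chr11:120824598-120824797 (minus).
Hmgcs1: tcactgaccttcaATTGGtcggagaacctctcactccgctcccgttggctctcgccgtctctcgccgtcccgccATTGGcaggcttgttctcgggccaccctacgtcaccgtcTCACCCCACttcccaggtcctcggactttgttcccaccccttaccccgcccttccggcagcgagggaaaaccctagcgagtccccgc
Insig1: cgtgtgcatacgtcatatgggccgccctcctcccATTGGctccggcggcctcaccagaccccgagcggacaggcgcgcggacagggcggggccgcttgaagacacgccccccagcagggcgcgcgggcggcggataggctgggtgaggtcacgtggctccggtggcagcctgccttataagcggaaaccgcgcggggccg
Fasn: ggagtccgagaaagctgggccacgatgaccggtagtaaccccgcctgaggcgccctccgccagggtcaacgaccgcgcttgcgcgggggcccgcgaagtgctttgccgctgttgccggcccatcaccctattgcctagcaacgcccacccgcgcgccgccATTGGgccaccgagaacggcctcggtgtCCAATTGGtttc
In Fasn a CCAAT and an ATTGG overlap, 62 and 59 bases before the start, with another ATTGG at 90. In Insig1 the ATTGG begins 216 bases before the start.

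Reads counted in genes ranged from 18929743 to 33131739 per library. Values in 4 libraries are given throughout in a fixed order, replicates 1 and 2 of WT and then replicates 1 and 2 of AXL KO, in CPM, the count of a gene scaled to a common library size with TMM factors. Axl was at 61.8, 35.2, 4.75 and 4.89 CPM, so the knockout libraries fit their labels. Epithelial markers were detected in every library, with Epcam at 1329.6, 966, 1318 and 1342 CPM and Erbb2, which also counts any reads of the transgene that map to it, at 10967, 12594, 19776 and 19975 CPM. WT replicate 2 stood apart from the rest, with a chi-square over genes of 132 to 151 per degree of freedom against each other library and 30.3 to 56.0 among the other 3. The library name of AXL KO replicate 2 has another beginning than the other 3 names, so its values are also given left out.

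None of the 29 genes passed edgeR's quasi-likelihood test for AXL KO against WT, where 0.0% of all 14330 genes tested passed. The adjusted p was at least 0.9997 for every member. Axl itself, with a log2 difference of −3.33 and an unadjusted edgeR p of 0.000184, also had an edgeR adjusted p of 0.9997. Its DESeq2 adjusted p was 2.2e-13. The edgeR test thus missed the known knockout, and its adjusted p-values do not show that the members were unchanged. At an unadjusted p under 0.05 there were 2 members, Insig1 and Thrsp, both higher in AXL KO (1.15% of all genes) and 0 lower (1.04%), against 2.19% of all genes in either direction (314). DESeq2 called 16 genes (0.112%) and limma-voom 0 (285 at an unadjusted p under 0.05, 1.99%), with 0 members in either. The lowest DESeq2 adjusted p among members was 0.588, for Thrsp. A positive log2 difference was seen for 21 members, where 49.7% of all genes had one. The AXL KO values were both higher than the WT values for 10 members (14.7% of all genes) and both lower for 1, Insig2 (14.5%). Without WT replicate 1 these counts were 18 and 7 (40.3% and 38.7% of all genes), with 0 members called where 1.66% of genes were. They were 13 and 7 without WT replicate 2 (33.2% and 33.7%) and 15 and 4 without AXL KO replicate 1 (25.9% and 26.9%). Without AXL KO replicate 2 they were 8 and 6 (28.2% and 31.5%), the 8 close to its share over all genes. Each of these fits compared the libraries kept, with the filter and TMM factors computed anew, so rescaling also moves the counts. On the scaling of the main fit AXL KO replicate 1 lay above both WT libraries for all of the 10 members counted above. In these bulk tumours fewer cells of a type and less RNA per cell cannot be told apart.

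The WT libraries differed from each other by more than the group difference for 21 of the 29 members, and so did 73.1% of all genes. The median distance of the members between the WT libraries was 0.46 on the log2 scale, against 0.17 between the AXL KO libraries and 0.17 between the groups. Over all genes the median was 0.396 between the WT libraries and 0.222 between the AXL KO libraries, so the wider WT spread was not particular to the members. WT replicate 2 was the lowest of the 4 libraries for 16 members (35.8% of all genes) and the highest for 7 (34.6%), and AXL KO replicate 2 was the highest for 14 (17.2%). For 6 members, Thrsp, Mvk, Pmvk, Idi1, Cyp51 and Msmo1, the distance within each group was smaller than the distance between groups, which held for 15.8% of all genes. The rarest member had 144 reads in a library, and for members with few reads, such as Mvk and Pmvk, counting error is a part of these distances.

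**Figure D1:**
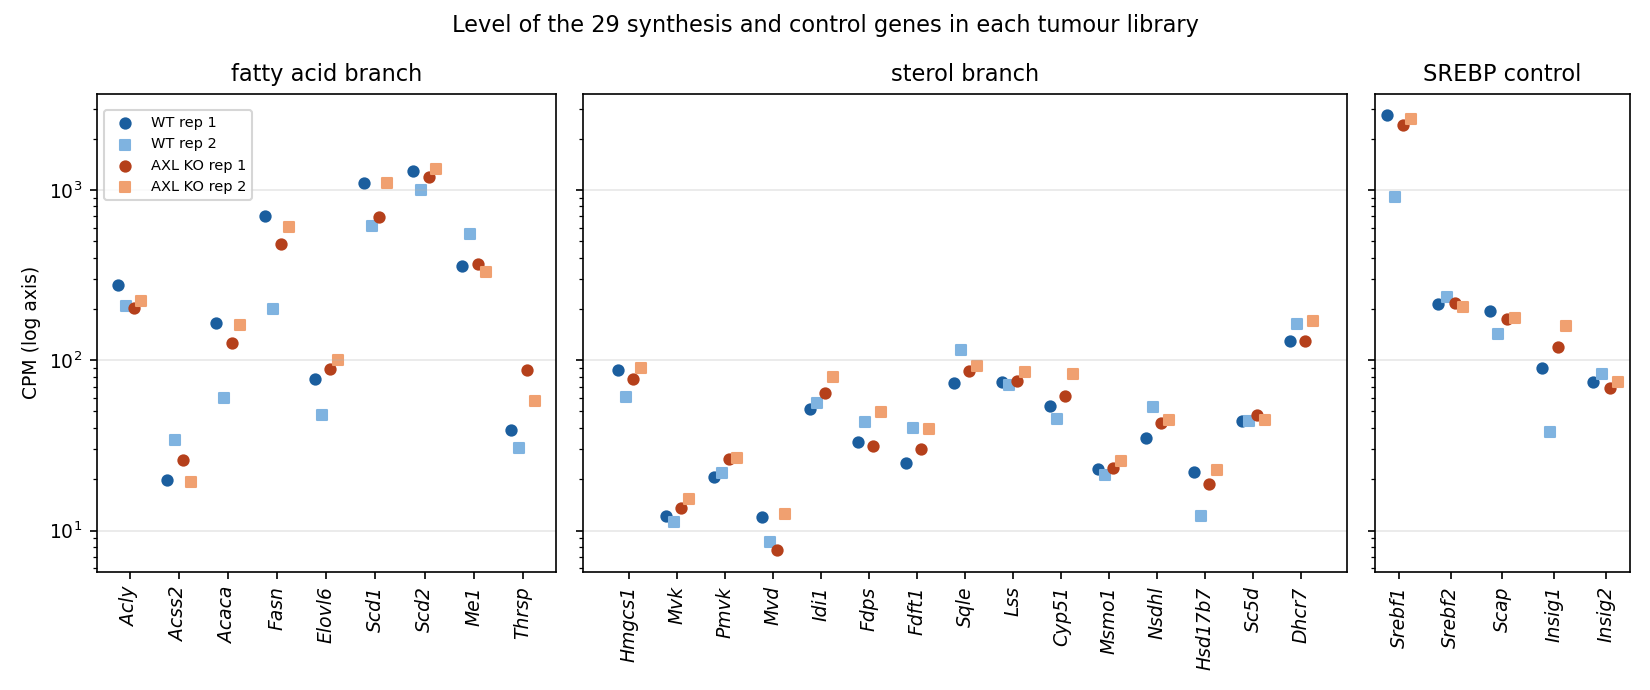
CPM of each of the 29 genes in the 4 libraries on a log axis, in 3 panels for the fatty acid branch, the sterol branch and SREBP control. Srebf1, Fasn, Acaca and Insig1 have a WT replicate 2 point well under the other 3, while the sterol genes lie closer together.

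Fatty acid synthesis begins with the supply of acetyl-CoA and NADPH, and the log2 differences of Acly, Acss2 and Me1 were negative. Acly, whose product cleaves citrate to acetyl-CoA, was at 277, 207, 202 and 223 CPM, with a log2 difference of −0.19 ± 0.22 (SE), and the WT and AXL KO values overlapped. Acss2, which makes acetyl-CoA from acetate, was at 19.7, 33.9, 25.9 and 19.3 CPM, highest in WT replicate 2, with a difference of −0.25. Me1, the malic enzyme that supplies NADPH, was likewise highest in WT replicate 2, at 355, 549, 365 and 331 CPM, and its difference was −0.38 ± 0.27 (SE). Part of the Acss2 exons overlaps Gss on the opposite strand, and the strand setting is not given in the sources used here.

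For the carboxylase and synthase genes WT replicate 2 was far below the other 3 libraries. Fasn (ENSMUSG00000025153), the fatty acid synthase gene, at bases 120805846 to 120824547 of chromosome 11 (minus strand), GRCm38, was at 698, 201, 478 and 603 CPM. Acaca, the acetyl-CoA carboxylase that commits carbon to the pathway, was at 165, 59.7, 127 and 162 CPM. WT replicate 2 held 28.7% of the WT replicate 1 level of Fasn and 36.2% of that of Acaca, while both AXL KO libraries lay between the WT libraries for both genes. The log2 differences were 0.27 ± 0.59 and 0.36 ± 0.48 (SE). Without WT replicate 2 they turned to −0.37 and −0.19, and without WT replicate 1 they were 1.44 and 1.28. Per kilobase of exon, Fasn stood at 6.61, 5.24, 5.88 and 5.82 times Acaca, so this ratio moved far less than either level.

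Elovl6, which lengthens palmitate, was at 77.5, 48.0, 88.3 and 99.7 CPM, with no overlap between the groups, a log2 difference of 0.58 ± 0.27 (SE) and an unadjusted edgeR p of 0.0831. Scd1, the desaturase that makes palmitoleate and oleate, was at 1103, 615, 690.4 and 1095 CPM, and its close copy Scd2 at 1283, 1002, 1187 and 1318 CPM. The groups overlapped for both desaturases, with differences of 0.056 and 0.13 that turned to −0.31 and −0.039 without WT replicate 2. Per kilobase, Scd1 was at 0.960, 0.685, 0.650 and 0.928 times Scd2, lower in WT replicate 2 and AXL KO replicate 1 than in the other libraries. Reads shared by such similar transcripts make the split between Scd1 and Scd2 uncertain.

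Thrsp, known as Spot 14, is a small regulator that promotes fatty acid synthesis in liver, fat and mammary gland, and it had the largest log2 difference in this branch. Thrsp (ENSMUSG00000035686) is found at bases 97412938 to 97417730 of chromosome 7 (minus strand), GRCm38. Its counts were 833, 582, 1649 and 1914, or 39.0, 30.5, 88.1 and 57.4 CPM, so the groups did not overlap. Mean CPM was 34.7 ± 5.996 (SD) for WT against 72.7 ± 21.7 (SD) for AXL KO, n = 2 for each, 2.09-fold higher, with a log2 difference of 1.07 ± 0.28 (SE) and an unadjusted p of 0.0116 that did not pass adjustment (edgeR, 0.9997). The difference stayed positive with each library left out, from 0.72 without AXL KO replicate 1 to 1.32 without AXL KO replicate 2. AXL KO replicate 1, the highest library for Thrsp, was also the highest for all 5 brown fat markers, whose summed level was 55.3, 56.9, 85.7 and 64.6 CPM, with Ucp1 at 0 counts in WT replicate 2 and Elovl3 at 0 in both WT libraries. It was the highest as well for 7 of 9 markers of secretory mammary epithelium, with the casein gene Csn1s1 at 1.496, 45.4, 190.1 and 41.0 CPM. By the sum of these markers, however, AXL KO replicate 1 was the lowest library, at 29233, 19258, 15622 and 25354 CPM. The part of these cell types in the Thrsp values was not tested. Adipocyte markers did not follow Thrsp in their sum, which was 115, 217, 158 and 180.2 CPM, and 6 of the 10 were lowest in WT replicate 1.

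As a group, the fatty acid branch had positive log2 differences in 6 of 9 members and a median of 0.13, where the median of all genes was −0.0019. For 2 of the 9, Elovl6 and Thrsp, the AXL KO values exceeded both WT values (22.2%, against 14.7% of all genes), and 0 had them below. Without WT replicate 2 the median turned to −0.039, with 2 members above WT replicate 1 in both AXL KO libraries and 4 below it (33.2% and 33.7% of all genes in that fit).

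**Figure D2:**
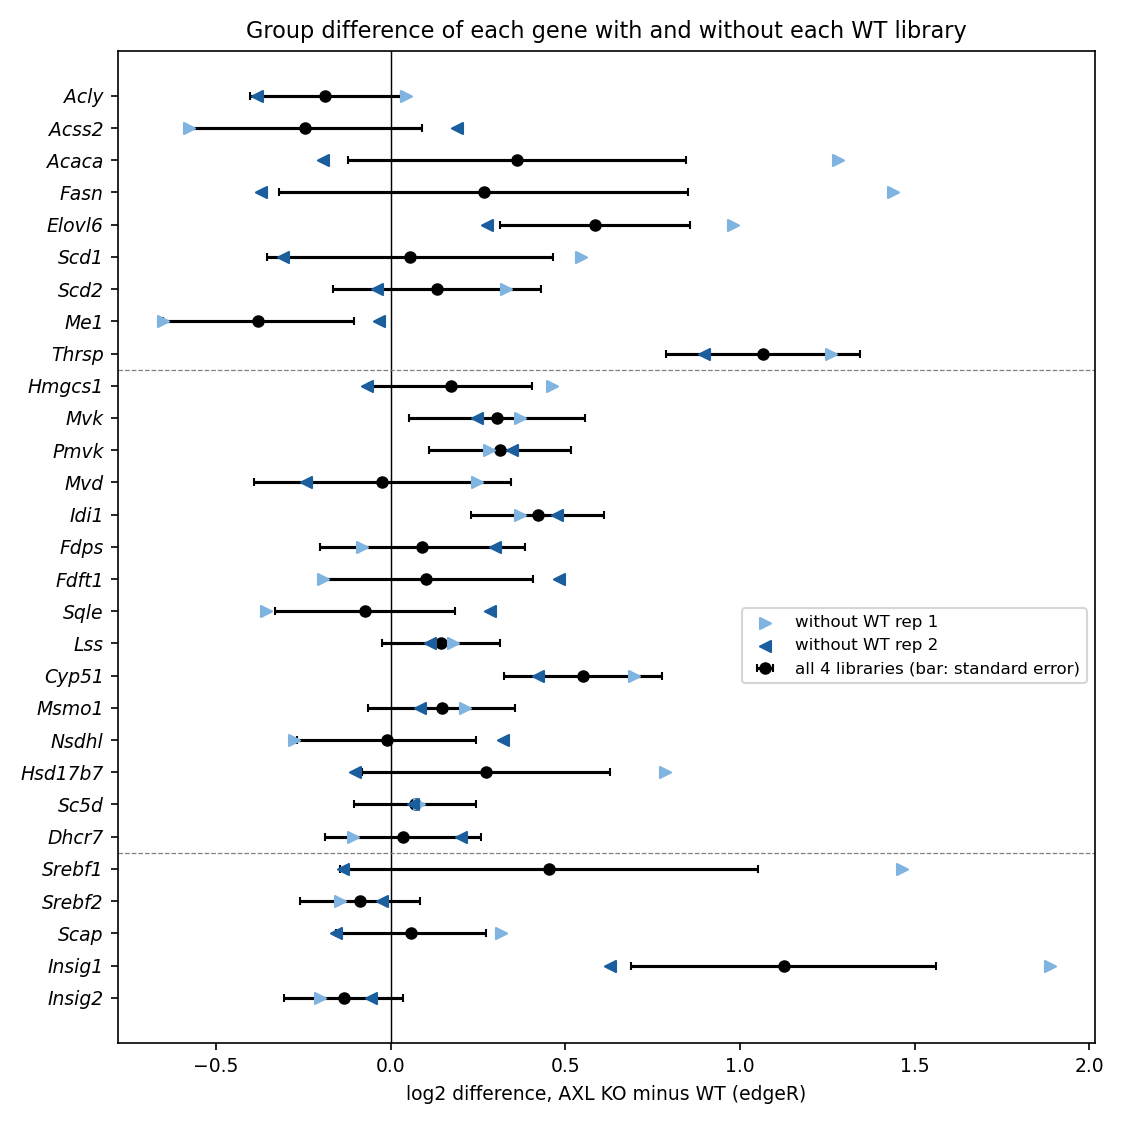
Log2 difference, AXL KO minus WT, of each gene from all 4 libraries (black, bar: standard error) and with WT replicate 1 or WT replicate 2 left out (triangles), with dashed lines between the fatty acid branch, the sterol branch and SREBP control. Fasn runs from −0.37 to 1.44 between the triangles, whereas Pmvk, Idi1, Lss and Sc5d hardly move.

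In the sterol branch AXL KO replicate 2 stood highest by the branch median, and the median deviations from each gene's mean were −0.14, −0.12, −0.010 and 0.21 on the log2 scale, against 0.11, −0.46, 0.091 and 0.21 for the fatty acid branch. The sterol branch begins with Hmgcs1, the synthase that makes HMG-CoA, at 87.3, 61.0, 77.4 and 89.6 CPM, whose groups overlapped. Mvk, mevalonate kinase, was at 12.1, 11.2, 13.5 and 15.3 CPM, and Pmvk, the phosphomevalonate kinase that follows it, at 20.7, 21.9, 26.3 and 26.5 CPM. For both kinases the 2 AXL KO libraries lay above the 2 WT libraries, with log2 differences of 0.30 ± 0.25 and 0.31 ± 0.20 (SE). Mvd, the decarboxylase that makes isopentenyl diphosphate, was the least abundant member by CPM, at 12.0, 8.59, 7.69 and 12.5 CPM, and its groups overlapped, with a difference of −0.024.

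Idi1 (ENSMUSG00000058258), the isomerase that interconverts the isoprenoid building blocks, is found at bases 8885501 to 8892451 of chromosome 13 (plus strand), GRCm38, and was at 51.5, 55.9, 64.4 and 79.3 CPM. Its log2 difference was 0.42 ± 0.19 (SE), with an unadjusted edgeR p of 0.0771, and it ran from 0.25 to 0.56 with 1 library left out. Fdps, which makes farnesyl diphosphate, was at 33.0, 43.3, 31.5 and 49.7 CPM, and Fdft1, squalene synthase, at 24.9, 40.1, 29.9 and 39.6 CPM. Both overlapped between the groups, since WT replicate 2 and AXL KO replicate 2 were high and the other libraries low. Fdft1 exons overlap those of Ctsb on the opposite strand over 774 bases, with 12985 to 27134 Ctsb reads per library, and Fdps has pseudogene copies, so both counts are uncertain.

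Squalene and lanosterol genes were mixed. Sqle, the squalene epoxidase and a rate-limiting enzyme of the branch, was at 73.0, 115, 86.3 and 92.0 CPM, highest in WT replicate 2, with a difference of −0.074 that turned to 0.28 without that library. Lss, which closes squalene epoxide into lanosterol, was at 74.3, 71.5, 75.7 and 85.3 CPM, with the groups apart by a small margin. Cyp51 (ENSMUSG00000001467), the lanosterol demethylase gene at bases 4081145 to 4104746 of chromosome 5 (minus strand), GRCm38, was at 54.1, 45.0, 62.0 and 83.2 CPM. Cyp51 was therefore higher in each AXL KO library than in either WT library, 1.46-fold by the group estimate, with a log2 difference of 0.55 ± 0.23 (SE) and an unadjusted p of 0.0568 by edgeR. Its difference ran from 0.30 to 0.74 with 1 library left out, lowest without AXL KO replicate 2. Cyp51 exons share 166 bases with Akap9 on the opposite strand, so part of its reads may have been set aside or shared.

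Msmo1, the sterol methyl oxidase, was at 23.0, 21.2, 23.2 and 25.6 CPM, and Sc5d, a sterol desaturase, at 43.9, 43.7, 47.6 and 44.3 CPM. The AXL KO values were higher in both, by less than the standard error, with log2 differences of 0.15 ± 0.21 and 0.070 ± 0.17 (SE). Nsdhl, a dehydrogenase of the demethylation complex encoded on the X chromosome, was at 34.7, 53.0, 42.8 and 44.3 CPM, and Hsd17b7, the reductase of the same complex, at 22.2, 12.1, 18.7 and 22.8 CPM. Their groups overlapped, with log2 differences of −0.012 ± 0.26 and 0.27 ± 0.36 (SE). In WT replicate 2 Nsdhl was the highest and Hsd17b7 the lowest of the 4 libraries, so the genes of that complex did not go together there. Dhcr7, which reduces the last precursor in the branch that leads through dehydrocholesterol, was at 130.3, 163, 129.8 and 170.3 CPM, with a difference of 0.035.

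Over the sterol branch, 12 of 15 log2 differences were positive, with a median of 0.14 and a range from −0.074 to 0.55. The AXL KO values exceeded both WT values for 7 of them, Mvk, Pmvk, Idi1, Lss, Cyp51, Msmo1 and Sc5d (46.7%, against 14.7% of all genes), and were under both for 0 (14.5%). With WT replicate 2 left out, 10 of 15 lay above WT replicate 1 and 0 below it (33.2% and 33.7% of all genes), with a median of 0.25. In the fit without AXL KO replicate 2, AXL KO replicate 1 lay above both WT libraries for 5 and below both for 3 (28.2% and 31.5%). The median there was 0.042, against −0.035 for all genes. That fit computed its TMM factors anew. On the scaling of the main fit AXL KO replicate 1 lay above both WT libraries for all 7 named genes. AXL KO replicate 2 was the highest library for 11 of the 15 (17.2% of all genes). It is also the most deeply sequenced library and the one whose name begins differently, so the values without it are those among libraries that share a name beginning.

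**Figure D3:**
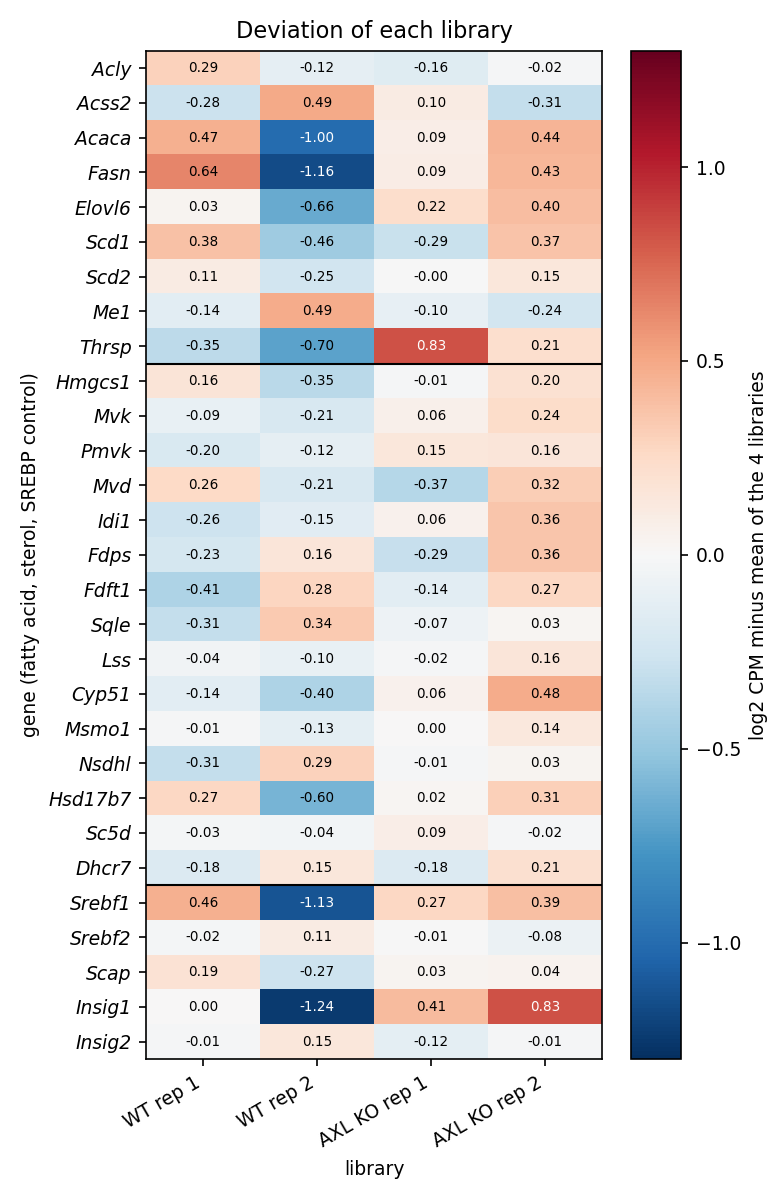
Log2 CPM of each gene minus its mean over the 4 libraries, one row per gene and one column per library, red above and blue below the mean, with black lines between the fatty acid branch, the sterol branch and SREBP control. WT replicate 2 is −1.24 for Insig1, −1.16 for Fasn and −1.13 for Srebf1 but above the mean for Me1, Acss2 and Sqle, and AXL KO replicate 2 is above it for every sterol gene but Sc5d.

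Among the control genes Insig1, the sterol-sensing brake that is itself a target of SREBPs, had the largest log2 difference of all 29 members. Insig1 (ENSMUSG00000045294) is found at bases 28071363 to 28078662 of chromosome 5 (plus strand), GRCm38. Its counts were 1928, 724, 2241 and 5323, or 90.2, 37.9, 119.7 and 159.6 CPM, so the groups did not overlap and the WT libraries were themselves far apart. Mean CPM was 64.0 ± 36.9 (SD) for WT against 139.7 ± 28.2 (SD) for AXL KO, n = 2 for each, 2.18-fold higher by the group estimate, with a log2 difference of 1.13 ± 0.44 (SE) and an unadjusted p of 0.0483 that did not pass adjustment (edgeR, 0.9997). Without WT replicate 2 the difference was 0.63, with an edgeR adjusted p of 0.978. Without WT replicate 1 it was 1.89 with an adjusted p of 0.0515, but there the spread comes from the AXL KO pair alone and the lone WT replicate 2, the library that stands apart, is assumed to vary like that pair. Insig2, the other INSIG gene, which does not depend on SREBPs in the same way, was at 74.4, 82.9, 68.9 and 74.4 CPM. Its AXL KO values lay below its WT values by a margin seen only in the decimals, 74.38 against 74.39 CPM for the nearest pair. Per kilobase, Insig1 was at 1.36, 0.513, 1.95 and 2.41 times Insig2, so the balance between them was lowest in WT replicate 2 and highest in AXL KO replicate 2.

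By the mean of the 4 libraries Srebf1 was the most abundant member per kilobase of exon, although in WT replicate 2 it stood below Scd2, at 235, 183, 217 and 241 CPM per kilobase. Srebf1 (ENSMUSG00000020538), at bases 60199089 to 60222581 of chromosome 11 (minus strand), GRCm38, was at 2739, 909.6, 2396 and 2600.0 CPM, or 486, 161, 425 and 461 CPM per kilobase. By its mean CPM per kilobase it ranked 67 among 21250 protein-coding genes, ahead of Scd2 at 131 and Scd1 at 175. WT replicate 2 was at 33.2% of WT replicate 1, the other 3 libraries lay close together, and the log2 difference of 0.45 ± 0.60 (SE) turned to −0.14 without WT replicate 2. Srebf2 did not share this, at 213, 234, 216 and 205 CPM and a difference of −0.088 ± 0.17 (SE). Per kilobase, Srebf1 stood at 16.4, 4.96, 14.2 and 16.2 times Srebf2. Scap, the escort protein gene, was at 195, 142, 175 and 176 CPM, lowest in WT replicate 2, with overlapping groups and a difference of 0.059.

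The members with the lowest share of their WT replicate 1 level in WT replicate 2 were thus Fasn, Srebf1, Acaca and Insig1, at 42.0% for the last. In the same library T cell markers were lowest for all 4 genes, with a sum of 8.51, 0.995, 5.66 and 8.73 CPM, and macrophage markers for 4 of 5, with a sum of 540.3, 406, 486 and 648 CPM. Of 7 luminal markers, Epcam and Cdh1 were lowest there, while Krt8, at 610.3, 928, 636 and 529 CPM, and Krt18, at 691, 1366, 682 and 632 CPM, were highest. Fibroblast markers were lowest in AXL KO replicate 1 for 4 of 5, with a sum of 664, 954, 262 and 884 CPM, and endothelial markers ranged from 78.0 to 102 CPM in sum. Of the 4 skeletal muscle markers, Myh4 had 0 counts in every library. How much these cell types shaped the synthesis genes was not tested.

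**Figure D4:**
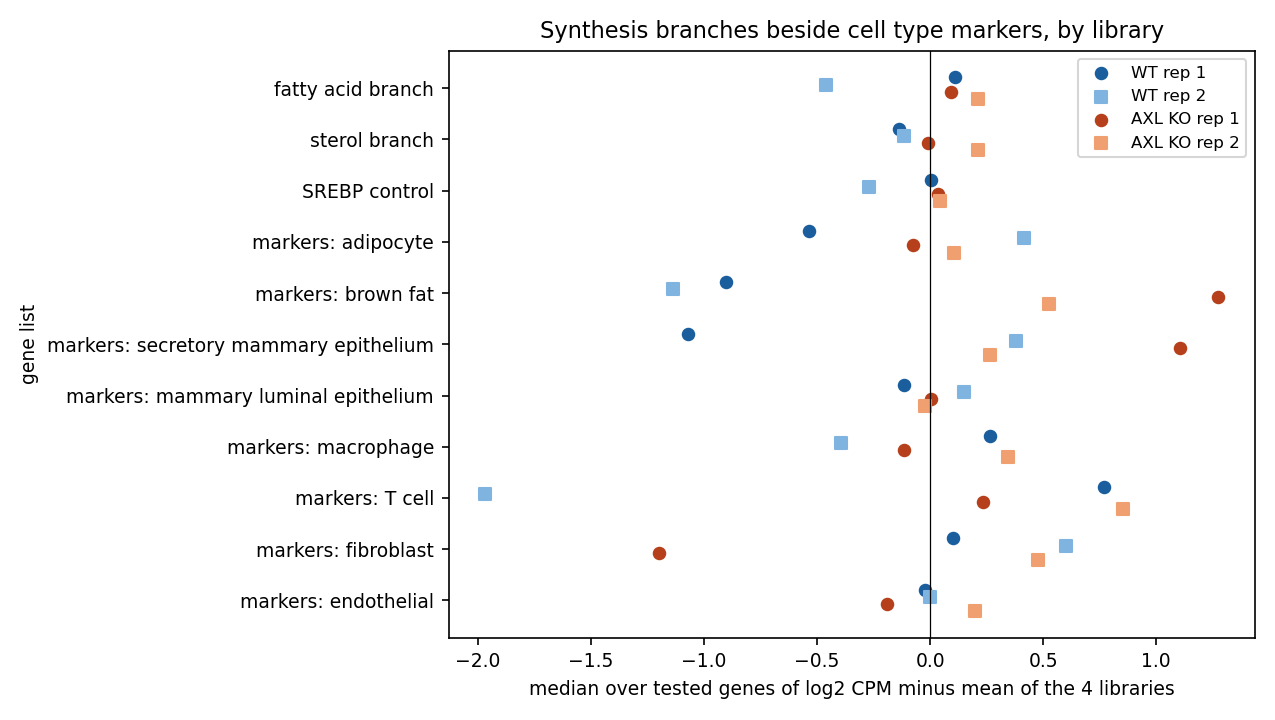
Median over the tested genes of each list of log2 CPM minus the mean of the 4 libraries, for the 3 groups of members and 8 lists of cell type markers, 1 point per library. WT replicate 2 lies lowest for the fatty acid branch at −0.46 and for T cell markers at −1.97, and AXL KO replicate 1 lies highest for brown fat markers at 1.27.

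Other lipid genes, listed by role, were tested in the same fit, and 0 of 50 passed edgeR or DESeq2. At an unadjusted edgeR p under 0.05 there were 0 higher and 2 lower (1.15% and 1.04% of all genes). The 5 other mevalonate and sterol genes listed, among them Ebp, had a median log2 difference of 0.028, which turned to −0.032 without WT replicate 2, with 1 gene above and 1 below in both AXL KO libraries (14.7% and 14.5% of all genes). Genes for citrate export, NADPH, elongation and desaturation (15 genes) had a median of −0.098, which turned to 0.037 without WT replicate 2, with 4 above and 4 below (26.7% each, against 14.7% and 14.5% of all genes). In that list the pentose phosphate enzyme gene G6pdx was at 103, 117, 80.7 and 75.9 CPM, lower in both AXL KO libraries, with a log2 difference of −0.50 and an unadjusted edgeR p of 0.0320. Acacb, the mitochondrial form of the carboxylase, was at 40.8, 35.5, 45.8 and 57.0 CPM and the citrate carrier gene Slc25a1 at 58.0, 40.6, 58.6 and 71.4 CPM, both with the AXL KO values above the WT values. The elongase gene Elovl1 was at 110.3, 111, 96.6 and 86.5 CPM, with the AXL KO values below the WT values.

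Of 10 genes for the uptake, transport and efflux of sterols and lipids, 4 had positive differences (49.7% of all genes), and 4 were below both WT libraries in both AXL KO libraries (40.0%, against 14.5% of all genes) and 0 above, with a median of −0.22 that ran from −0.37 without AXL KO replicate 2 to −0.077 without AXL KO replicate 1. Abcg1, which exports cholesterol, was at 54.0, 61.3, 33.3 and 38.4 CPM. Its log2 difference was −0.68 ± 0.19 (SE), with an unadjusted p of 0.0151 by edgeR. The exporter gene Abca1 was at 101, 89.3, 56.9 and 86.7 CPM, the lysosomal cholesterol transporter gene Npc1 at 100.1, 149, 93.4 and 93.6 CPM and the lipoprotein receptor gene Scarb1 at 91.1, 119.7, 77.4 and 86.8 CPM. With WT replicate 2 left out the differences of Abcg1, Abca1, Npc1 and Scarb1 were −0.59, −0.50, −0.10 and −0.15. That of Abca1 was −0.14 without AXL KO replicate 1, its lowest library, and −0.76 without AXL KO replicate 2. In the 11 SREBP processing and regulator genes, which include the site proteases Mbtps1 and Mbtps2, the median was 0.028 and the range from −0.061 to 0.38. The 9 acyl-CoA and triglyceride genes had a median of −0.22, which was −0.051 without AXL KO replicate 1 and turned to 0.011 without WT replicate 2. WT replicate 2 was the highest library for 7 of the 9 (77.8%, against 34.6% of all genes). Among them was Dgat2, which makes the final step to triglyceride, at 7.15, 42.3, 9.45 and 14.3 CPM.

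**Figure D5:**
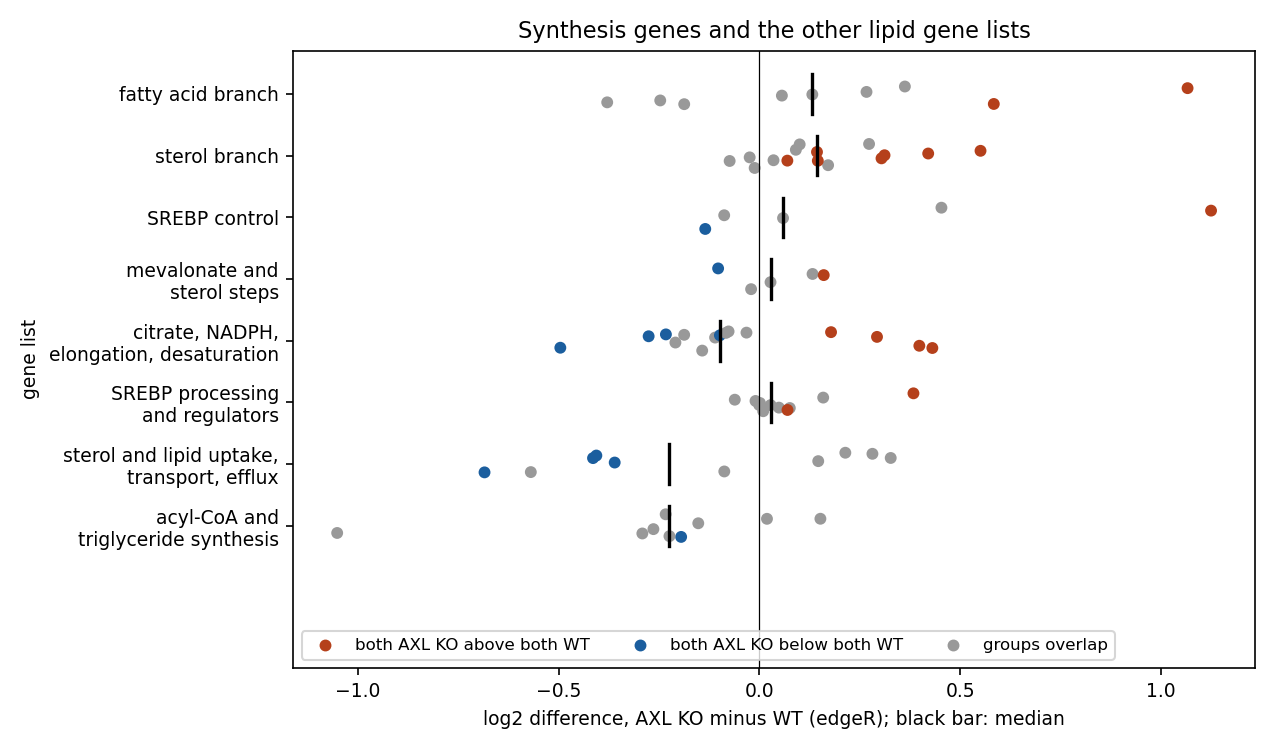
Log2 difference, AXL KO minus WT, of each tested gene in the 3 groups of members and 5 other lipid gene lists, coloured by whether both AXL KO libraries lie above or below both WT libraries, with the list median as a black bar. The sterol branch holds 7 points of the first kind and 0 of the second, and the uptake, transport and efflux list 0 and 4.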

How the data were processed

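Each deposited file holds whole-number read counts per Ensembl gene for 1 library. As tools the submitters' processing notes name CASAVA 1.8, TopHat2 2.0.10, HTSeq 0.5.3, also DESeq2 1.4.5, and as build GRCm38, with no role given. The sources used here give neither the annotation release nor the strand setting, so reads of genes that overlap on opposite strands are uncertain. Of all reads in a file, 5.27% to 8.11% lay outside genes, 0.635% to 1.85% were ambiguous and 23.2% to 28.1% not unique. These 5 summary lines were left out of library sizes and tests.

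Symbols, positions and exon lengths came from GENCODE M21 (GRCm38), which matched 36429 of 38293 identifiers. Counts were filtered with filterByExpr (14330 genes kept), scaled with TMM factors and tested with edgeR 4.0.16 (glmQLFit, glmQLFTest, common dispersion 0.0962) in R 4.3.3, with Benjamini-Hochberg adjustment over all genes at 0.05. Alternatives were DESeq2 1.42.0, limma-voom (limma 3.58.1), other scaling, other filters, the replicate number as a block and each library left out. The fit was also run on simulated counts, with a dispersion set below that of these data. That run therefore does not measure how well the fit finds changes here. Deviations use log2 CPM with a prior count of 2. The members and lists were chosen with earlier results of these data known. All 29 members are named, with values for at most the 4 genes of smallest p in each other lipid list. From those lists 1 gene was left out. Marker genes named singly were picked after their values were seen.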

Additional observations from a re-analysis of the deposited data

How the results depend on the processing

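The count of members past edgeR's threshold was 0 under each of the 11 alternatives, and so was the count of all genes except with DESeq2, which called 16, and without WT replicate 1, which called 246. With 1 library left out that count ran from 0 to 246. With 1 library left out, members with every AXL KO library kept above every WT library kept numbered 8 to 18, and those below 4 to 7. The shares of all genes ran from 25.9% to 40.3% and from 26.9% to 38.7%. Each of these fits was filtered and scaled anew. Those below numbered 2 with library totals, 2 with no low-count filter and 0 with a CPM of at least 1 in 2 libraries. Leaving out 1 library moved the median log2 difference from −0.039 to 0.55 for the fatty acid branch, from 0.042 to 0.27 for the sterol branch and from −0.058 to 0.31 for SREBP control, and both negative ends came without WT replicate 2. For the sterol branch the low end came without AXL KO replicate 2, where the median of all genes was −0.035. Over the fits with 1 library left out the median of all genes ran from −0.035 to 0.022. For these counts and medians the cause was not tested.

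Of 203 single-gene values under the 7 alternatives that kept all libraries, 3 changed sign, all near 0: Mvd with limma-voom (0.0064), Nsdhl with limma-voom (0.027) and Nsdhl with the replicate block (0.019). With 1 library left out 16 members changed sign at least once, 11 of them without WT replicate 2. Their ranges were −0.38 to 0.043 for Acly, −0.58 to 0.19 for Acss2, −0.19 to 1.28 for Acaca, −0.37 to 1.44 for Fasn, −0.34 to 0.55 for Scd1, −0.039 to 0.33 for Scd2, −0.067 to 0.46 for Hmgcs1, −0.44 to 0.27 for Mvd, −0.29 to 0.38 for Fdps, −0.19 to 0.48 for Fdft1, −0.36 to 0.28 for Sqle, −0.28 to 0.32 for Nsdhl, −0.10 to 0.79 for Hsd17b7, −0.19 to 0.21 for Dhcr7, −0.14 to 1.47 for Srebf1 and −0.16 to 0.31 for Scap.

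No pairing by the shared replicate numbers was seen. The deviations of WT replicate 1 and AXL KO replicate 1 from their group means had a correlation of −0.045 over 14330 genes. With 2 libraries in each group, this value cannot exclude a pairing. With the number as a block edgeR called 0 genes and 0 members. At an unadjusted edgeR p under 0.05 there were then 571 genes, against 314 without the block. The standard errors rest on the spread between few libraries, 2 in each group. For genes with few reads they also hold counting error.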
